A study of Mus musculus with 8 samples.

Results

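The SLC25 carriers are the proteins that move metabolites, nucleotides and cofactors across the inner membrane of mitochondria. They were followed here in bulk RNA sequencing of mouse pancreatic islets, the endocrine clusters whose most numerous cells are the insulin-producing β cells. Members were taken as the protein-coding genes whose symbol is Slc25a followed by a number, which gave 46 of the 27534 genes listed (17059 of them protein coding). All islets came from C57BL/6J mice and were kept for 72 h in RPMI medium with serum. The medium held 20 mM glucose for 4 libraries (high glucose) and 7.5 mM glucose for the other 4 (low glucose). The labels give neither the age or sex of the mice nor whether libraries came from separate animals, so the p-values measure the spread between these libraries only.

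Most SLC25 carriers sit in the inner mitochondrial membrane and exchange a substrate of the matrix for a substrate of the cytosol. Adenine nucleotide translocases export ATP against ADP, and the phosphate carrier brings in the phosphate that ATP synthase uses. Others carry citrate, malate, oxoglutarate, aspartate and glutamate, and so link glycolysis to the citric acid cycle and to the NADH shuttles. In β cells the mitochondrial metabolism of glucose raises ATP, which closes potassium channels and triggers insulin release, and export of citrate and malate has been tied to secretion.

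Total counts per library were 20516328 to 24905499 with high glucose and 19543045 to 24949515 with low glucose. Insulin genes Ins1 and Ins2 took 17.3% to 21.7% of counts with high glucose and 17.2% to 22.7% with low glucose. Acinar enzyme markers took 0.358% to 2.04% with high glucose and 0.142% to 1.23% with low glucose. Their share was above that of the same-numbered low glucose library in all 4 high glucose libraries, and 0 of the 14 tested of 16 passed. Markers of fibroblasts and stellate cells took 0.0133% to 0.110% with high glucose and 0.0110% to 0.0285% with low glucose, and 0 of 7 passed. The 8 β-cell markers took 20.6% to 25.6% with high glucose and 19.5% to 25.5% with low glucose, more in the high glucose library of all 4 same-number pairs, and 2 rose and 3 fell. The 5 alpha-cell markers took 1.12% to 2.23% with high glucose and 1.51% to 2.75% with low glucose, less in the high glucose library of all 4 pairs, and 1 fell. No marker of these lists was at 0 in all libraries, and the part of other cells in the results below was not tested. In a bulk sample, fewer cells of a type and less RNA per cell cannot be told apart.

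Of the 46 carriers, 41 passed the filter on low counts and were tested with edgeR. In high glucose, 5 rose and 2 fell, and 34 did not pass at an adjusted p of 0.05. The 7 that changed make up 17.1% of those tested, below the 25.0% of all 15442 genes tested that changed. Changes were small. The median size of the log2 fold change was 0.15 over the carriers and 0.24 over all genes tested, and none of the 41 carriers differed by more than 0.59. The phosphate carrier Slc25a3, the dicarboxylate carrier Slc25a10, the glutamate carrier Slc25a22, the folate carrier Slc25a32 and Slc25a40, a relative of the glutathione importer, rose. The calcium-regulated ATP-Mg carrier Slc25a23 and the coenzyme A carrier Slc25a42 fell. Scaled by library size alone, 9 carriers were called, 3 higher and 6 lower, beside 27.4% of all genes, so the balance of directions depends on the scaling. Across all genes 37.8% of called genes were higher with that scaling, against 52.5% with TMM. With the replicate number as a block 10 were called, beside 37.4% of all genes. Leaving out low glucose replicate 2 also gave 10, beside 32.4%, and leaving out both libraries numbered 2 gave 11, beside 32.1%. The count dropped to 4, with 2 higher and 2 lower, when any of 4 other libraries was left out. These were high glucose replicate 1 (beside 19.3% of all genes), high glucose replicate 2 (20.5%), low glucose replicate 1 (19.3%) and low glucose replicate 4 (19.1%).

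Part of the sequence upstream of the start is shown for 4 of the 7 carriers that changed, as examples of carriers that rose and that fell. Slc25a3 has the NRF1-type motif and Slc25a42 repeated CCAAT boxes. The sequences come from RefSeq promoters of GRCm38.p6, cut to the longest part of the 250 bases before the start that holds no exon of GENCODE M21. The stretch of Slc25a3 therefore ends 93 bases before the start, and that of Slc25a42 ends 25 bases before it. Slc25a40 and Slc25a3 rose, and Slc25a42 and Slc25a23 fell. The stretches are chr5:8422717-8422837 on the plus strand, and chr10:91124060-91124217, chr8:70212306-70212531 and chr17:57059864-57060113 on the minus strand. Capitals mark matches on either strand to the GC box GGGCGG, the CCAAT box CCAAT, the E-box CACGTG or the NRF1-type motif, which is GCGCA and GCGC with any base between them.

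Slc25a40: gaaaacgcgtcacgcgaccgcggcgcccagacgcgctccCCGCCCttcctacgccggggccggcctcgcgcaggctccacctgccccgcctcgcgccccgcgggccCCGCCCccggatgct

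Slc25a3: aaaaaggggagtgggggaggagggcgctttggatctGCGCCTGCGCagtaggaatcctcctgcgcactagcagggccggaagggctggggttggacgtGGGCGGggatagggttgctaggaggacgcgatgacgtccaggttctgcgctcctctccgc

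Slc25a42: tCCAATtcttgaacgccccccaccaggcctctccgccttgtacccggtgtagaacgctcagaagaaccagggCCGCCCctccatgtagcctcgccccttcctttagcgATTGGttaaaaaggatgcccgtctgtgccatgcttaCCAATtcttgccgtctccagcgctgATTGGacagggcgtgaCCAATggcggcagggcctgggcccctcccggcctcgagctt

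Slc25a23: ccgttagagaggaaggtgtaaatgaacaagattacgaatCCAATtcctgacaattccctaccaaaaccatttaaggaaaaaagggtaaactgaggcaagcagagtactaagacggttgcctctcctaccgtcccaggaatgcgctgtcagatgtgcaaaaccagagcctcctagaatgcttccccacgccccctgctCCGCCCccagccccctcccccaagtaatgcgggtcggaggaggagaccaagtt

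The window of Slc25a42 held 5 CCAAT boxes, the most among the carriers, and 1 GC box. Slc25a3 carried the NRF1-type motif, which 2 of 45 carrier windows and 7.32% of 14476 windows of tested genes held. NRF1 is a factor known to bind genes of mitochondrial proteins. Windows were found for 35 of the 46 carriers, 6 of the 7 that changed among them, and some genes have several windows that overlap. The E-box, a site that ChREBP and MYC family factors can use, was in 8 of 45 carrier windows, or 17.8%, and in 7.94% of windows of tested genes. The carrier count includes overlapping windows of Slc25a14 that hold the same E-box, 54 and 184 bases before their starts. None of the 9 windows of carriers that changed held it. CCAAT boxes were in 46.7% of carrier windows and 34.8% of windows of tested genes, and GC boxes in 71.1% and 55.5%. A match describes letters and is not evidence of binding.

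Levels can be compared between carriers only per length, for which the authors' deposited FPKM was used. A few carriers dominated. Slc25a5 and Slc25a4, the adenine nucleotide translocases ANT2 and ANT1, Slc25a39, the importer of glutathione, and Slc25a3 were the only members with a mean of at least 50 FPKM. These 4 made up 51.9% to 57.4% of the summed FPKM of the family in a library. Slc25a5 led with 146 ± 8.85 FPKM in high glucose and 128 ± 20.8 FPKM in low glucose (mean ± SD, n = 4 here and below; ± beside a log2 fold change is its SE). Slc25a4 followed with 90.01 ± 7.92 and 89.0 ± 15.3 FPKM, and Slc25a39 with 74.4 ± 6.08 and 81.6 ± 10.1 FPKM. Slc25a4 was above Slc25a39 within each library, while the ranges of Slc25a4, Slc25a39 and Slc25a3 overlapped across libraries. Another 9 carriers had a mean between 10 and 50 FPKM, among them the citrate carrier Slc25a1 at 46.8 ± 5.03 and 48.1 ± 6.16 FPKM and the NAD carrier Slc25a51. Slc25a11 was at 29.6 ± 3.00 and 26.5 ± 4.06 FPKM, and Slc25a44, a carrier of branched-chain amino acids, at 26.2 ± 2.21 and 23.9 ± 1.15 FPKM, under high and low glucose. Means of 23 carriers lay between 1 and 10 FPKM and those of 10 below 1 FPKM. Of the paralogues, Slc25a12 (aralar) was at 11.6 ± 0.834 and 10.2 ± 0.555 FPKM, above citrin, Slc25a13, at 2.13 ± 0.168 and 1.89 ± 0.183 FPKM, in every library.

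**Figure D1:**
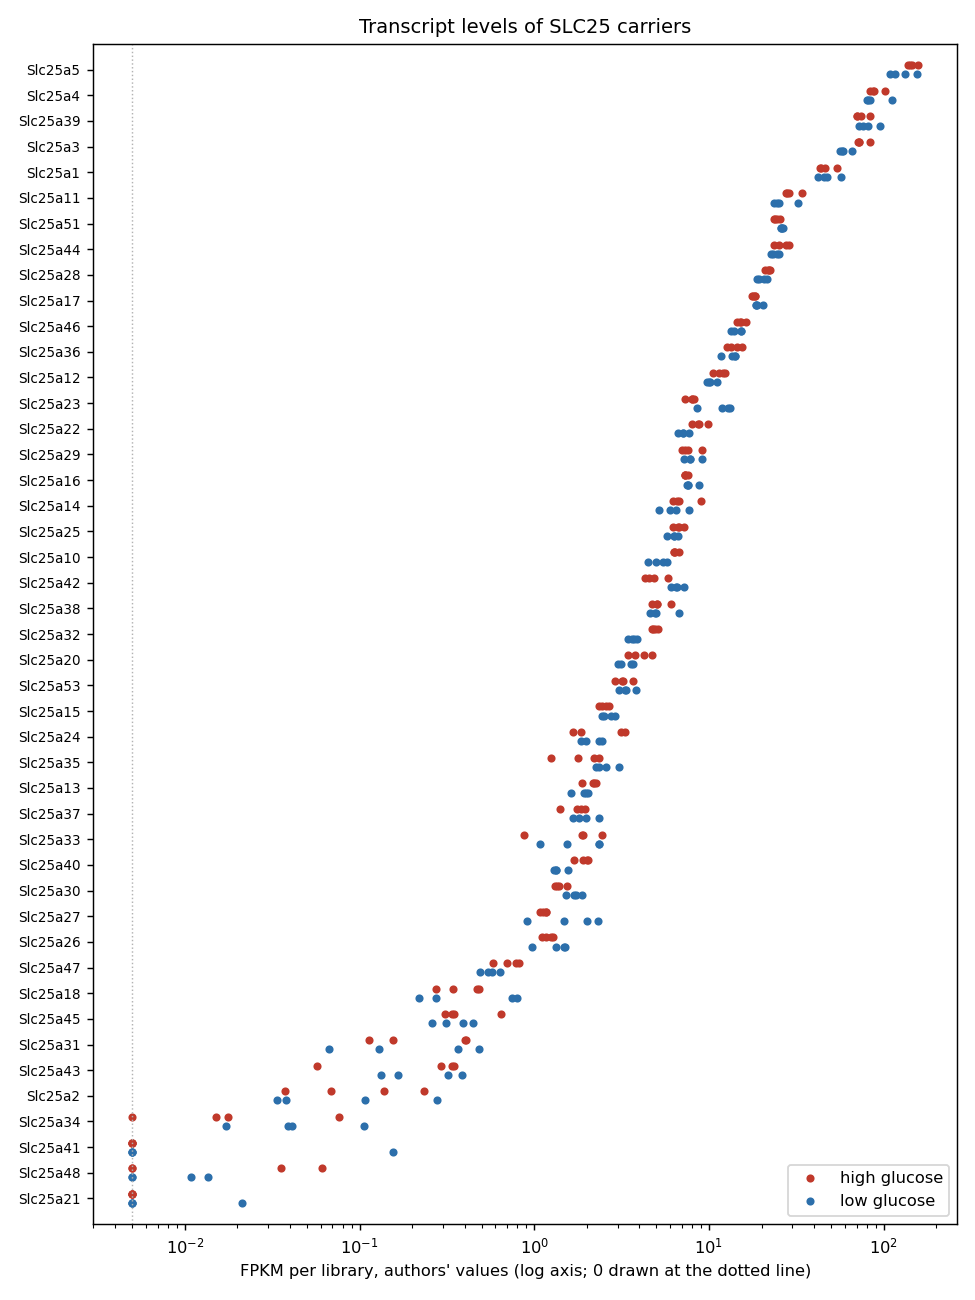
FPKM of the SLC25 carriers reported by name, in each library (log axis, 1 point per library, high glucose drawn above low glucose, zeros at the dotted line), ordered by mean level. Slc25a5 is highest, and the points of the same carrier in high and low glucose lie close together beside the span of levels across the family.

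The 5 carriers that were not tested had few reads. Slc25a2, Slc25a34 and Slc25a48 had 29, 18 and 9 reads over all 8 libraries. Slc25a21, a carrier of oxodicarboxylates, and Slc25a41, an ATP-Mg carrier, had 0 reads in each high glucose library, and all of their 2 and 4 reads came from low glucose replicate 2. A count of 0 allows up to 3 reads, which is 0.121 to 0.156 CPM in the high glucose libraries and covers counting error only.

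Among the carriers of adenine nucleotides and phosphate, Slc25a3 rose and Slc25a23 fell. Slc25a3 (chromosome 10, 91116574 to 91124059, minus strand, GRCm38 here and below) was at 408, 474, 402 and 399.7 CPM under high glucose, against 335, 378, 330.1 and 318 CPM under low glucose, replicates 1 to 4 in order here and below. Every high glucose library lay above every low glucose library, and replicate 2 was the highest of its group in each. The log2 fold change was 0.31 ± 0.09, with an edgeR adjusted p of 0.0259. The adjusted p was above the threshold when replicate 1 or 2 of high glucose, or 1, 3 or 4 of low glucose, was left out, at 0.0506 to 0.0850. Slc25a3 contains the small nucleolar RNA gene Gm24119, with 152 reads against 65484.

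Slc25a23 (chromosome 17, 57043711 to 57059863, minus strand), which brings ATP-Mg into the matrix against phosphate when calcium rises, was at 39.0, 43.1, 43.6 and 43.0 CPM under high glucose. In low glucose it was at 72.4, 46.5, 70.1 and 63.5 CPM. Replicate 2 of low glucose stood below the other low glucose libraries but above every high glucose library. The level was 1.498-fold lower in high glucose, a log2 fold change of -0.58 ± 0.12, adjusted p = 0.00616, and it passed with each library left out in turn (adjusted p up to 0.0234). Slc25a23 shares 759 bases with Crb3 on the opposite strand, so with the strand setting not given its values are uncertain. Crb3 itself had a log2 fold change of 0.06 with adjusted p = 0.617. The other ATP-Mg carriers tested, Slc25a24 and Slc25a25, had log2 fold changes of 0.20 ± 0.23 and 0.08 ± 0.07, with adjusted p of 0.578 and 0.442.

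The translocases, the most abundant carriers, did not pass. Slc25a4 was at 199, 243, 207 and 207 CPM under high glucose and 193, 271, 196 and 198 CPM under low glucose, and the groups overlapped. Its log2 fold change was -0.00 ± 0.12, and its sign changes with the scaling. Slc25a5 was at 236, 264, 226 and 243 CPM under high glucose and 196, 264, 184 and 221 CPM under low glucose. Each high glucose library was above its same-numbered partner, by little for replicate 2, with a log2 fold change of 0.16 ± 0.11 and adjusted p = 0.324. With the replicate number as a block the adjusted p was 0.0411, and it was 0.0297 without low glucose replicate 2. Slc25a5 has processed copies, and 4 similar genes in the table had 158 reads in all, against 39363. Slc25a31, the testis translocase ANT4, was below 1 FPKM. Of the 46 carriers, 13 have a stretch that matches another gene. Among those that changed, Slc25a3, Slc25a40 and Slc25a42 each match a pseudogene that is not among the genes listed, at 90.1%, 96.3% and 92.3% identity. Slc25a12 matches Adpgk, with 3791 reads, and Slc25a51 matches Itgad, with 1043 reads. How reads that fit more than 1 gene were treated is not given, so the values of these carriers are uncertain. Another listed gene overlaps 15 of the 46. The counts of matches and of overlaps share members, and the matches of Slc25a10, Slc25a35 and Slc25a46 include a gene that overlaps them. Slc25a18, Slc25a25, Slc25a26, Slc25a35, Slc25a46 and Slc25a53 share bases with protein-coding genes on the opposite strand, so their values are uncertain.

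**Figure D2:**
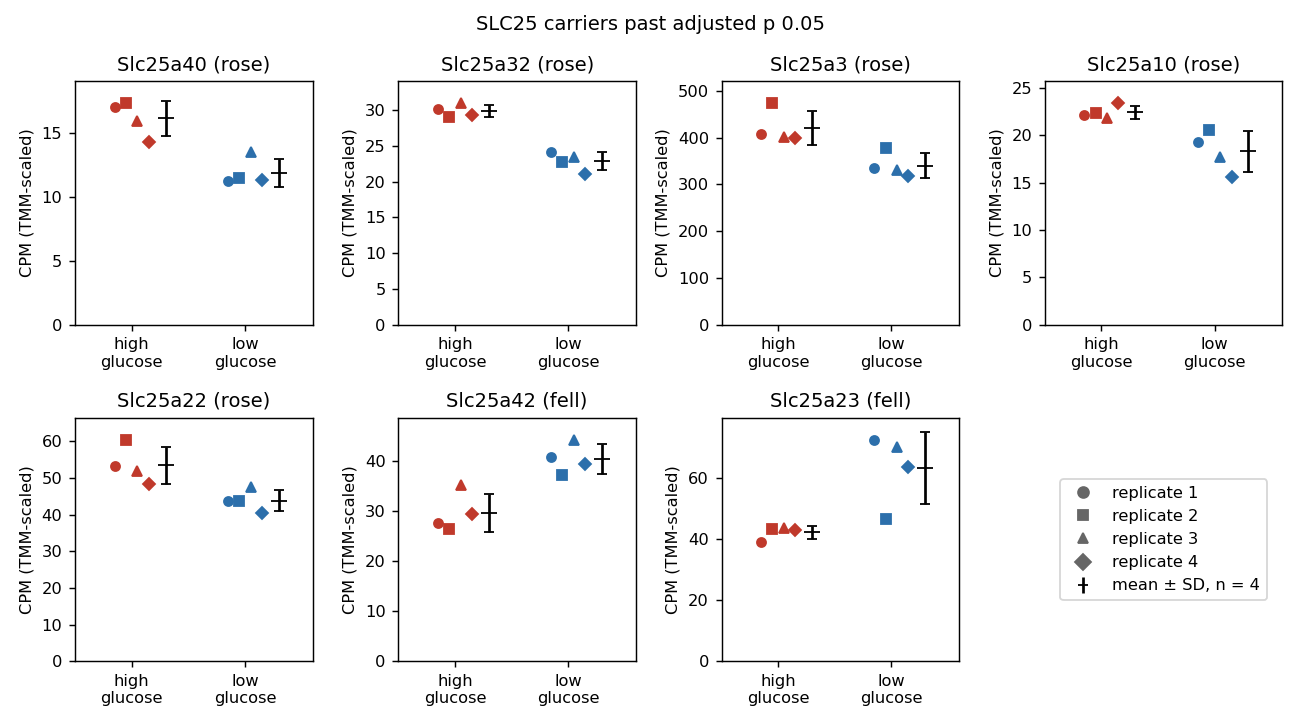
CPM of the 7 SLC25 carriers past an adjusted p of 0.05, with 1 symbol per library and the mean ± SD of each group (n = 4; axes start at 0). High glucose libraries do not overlap low glucose libraries for any of the 7. In the Slc25a23 panel, low glucose replicate 2 lies apart from the other low glucose libraries, just above the high glucose ones.

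Among carriers of carboxylates and of the NADH shuttles, Slc25a10 and Slc25a22 rose and 5 others did not pass. Slc25a10 (chromosome 11, 120491840 to 120499187, plus strand) exchanges malate or succinate for phosphate. It was at 22.2, 22.4, 21.8 and 23.4 CPM under high glucose, against 19.3, 20.6, 17.8 and 15.6 CPM under low glucose. The groups did not overlap, and the high glucose libraries were closer together than the low glucose ones. The log2 fold change was 0.29 ± 0.09 with adjusted p = 0.0435. It passed in only 1 of the 8 fits that leave out a library, the one without low glucose replicate 2, and the others gave 0.0639 to 0.108. With library size alone it gave 0.0958 and with no filter on low counts 0.0732. Its relative Slc25a11, the oxoglutarate carrier of the malate-aspartate shuttle, had a log2 fold change of 0.14 ± 0.11, adjusted p = 0.408, and 0.0356 without low glucose replicate 2. Slc25a11 shares bases with Rnf167 on the opposite strand.

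Slc25a22 (chromosome 7, 141429744 to 141437892, minus strand), the glutamate carrier GC1, was at 53.4, 60.3, 51.8 and 48.3 CPM under high glucose, against 43.8, 43.6, 47.4 and 40.4 CPM under low glucose. The lowest high glucose library, replicate 4, was just above the highest low glucose library, replicate 3. Its log2 fold change was 0.29 ± 0.08 with adjusted p = 0.0284, and 0.0936 with library size alone. The call was lost when replicate 1, 2 or 3 of high glucose, or 1 or 4 of low glucose, was left out, at 0.0518 to 0.0875. The second glutamate carrier, Slc25a18, had only 155 reads in all and did not pass. The aspartate-glutamate carriers Slc25a12 and Slc25a13, which complete the malate-aspartate shuttle, had log2 fold changes of 0.15 ± 0.07 and 0.15 ± 0.12. Each was higher in high glucose in all 4 same-number pairs, and neither passed (adjusted p = 0.161 and 0.408). Slc25a1, which exports citrate for lipid synthesis, had 101, 119, 94.1 and 95.5 CPM under high glucose and 94.2, 126, 106 and 100.1 CPM under low glucose, with a log2 fold change of -0.06 ± 0.11 and adjusted p = 0.742.

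Of the 8 tested carriers of cofactors and nucleotides, Slc25a32 rose, Slc25a42 fell and 6 did not pass. Slc25a32 (chromosome 15, 39091231 to 39112716, minus strand), which supplies mitochondria with folate and has also been described as a carrier of FAD, was at 30.2, 29.1, 31.0 and 29.4 CPM under high glucose. It was at 24.2, 22.8, 23.4 and 21.1 CPM under low glucose. The groups were well apart beside their own spread. The log2 fold change of 0.38 ± 0.07 had the smallest adjusted p of the family, 0.00252, and adjusted p was at most 0.0110 with any library left out. Slc25a42 (chromosome 8, 70184340 to 70212305, minus strand), which brings coenzyme A into the matrix, was at 27.5, 26.4, 35.1 and 29.3 CPM under high glucose, against 40.6, 37.2, 44.1 and 39.2 CPM under low glucose. High glucose replicate 3 stood nearest to the low glucose libraries without reaching them. It was 1.36-fold lower, a log2 fold change of -0.45 ± 0.10, adjusted p = 0.00724 and at most 0.0263 with any library left out. Slc25a16, a relative linked to coenzyme A, was at 35.6, 37.0, 35.2 and 35.2 CPM under high glucose and 37.5, 37.2, 43.5 and 36.7 CPM under low glucose, with adjusted p = 0.280.

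Slc25a51, which imports NAD, was at 136, 133, 139.8 and 132 CPM under high glucose and 147, 148, 150.3 and 145 CPM under low glucose. The groups did not overlap, yet the difference was small, with a log2 fold change of -0.12 ± 0.06 and adjusted p = 0.157, and 0.0366 with library size alone. Slc25a17, a carrier of peroxisomes, also had groups that did not overlap, with a log2 fold change of -0.10 ± 0.06 and adjusted p = 0.247. Together with the 7 that changed, 9 of the 41 carriers had no overlap between groups, or 22.0%, against 27.3% of all genes tested. The pyrimidine nucleotide carriers Slc25a33 and Slc25a36 did not pass.

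Slc25a39 and its relative Slc25a40 differed widely in level. Slc25a40 (chromosome 5, 8422850 to 8454797, plus strand) was at 17.0, 17.3, 15.9 and 14.3 CPM under high glucose, against 11.2, 11.5, 13.5 and 11.3 CPM under low glucose. It rose 1.36-fold, a log2 fold change of 0.44 ± 0.10 that was the largest increase among the carriers that passed (adjusted p = 0.0110, and at most 0.0373 with any library left out). Low glucose replicate 3 was the highest of its group and stayed below the high glucose libraries. Slc25a39, whose FPKM was far higher, was at 197, 233, 204 and 195 CPM under high glucose and 206, 271, 217 and 228 CPM under low glucose. It was lower in high glucose in all 4 same-number pairs, with a log2 fold change of -0.15 ± 0.10 and adjusted p = 0.301. With the replicate block the adjusted p was 0.0494, and with library size alone 0.0472. The test of the difference between Slc25a40 and Slc25a39, given with the ratios, did not pass after adjustment, which no ratio could do on its own values.

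**Figure D3:**
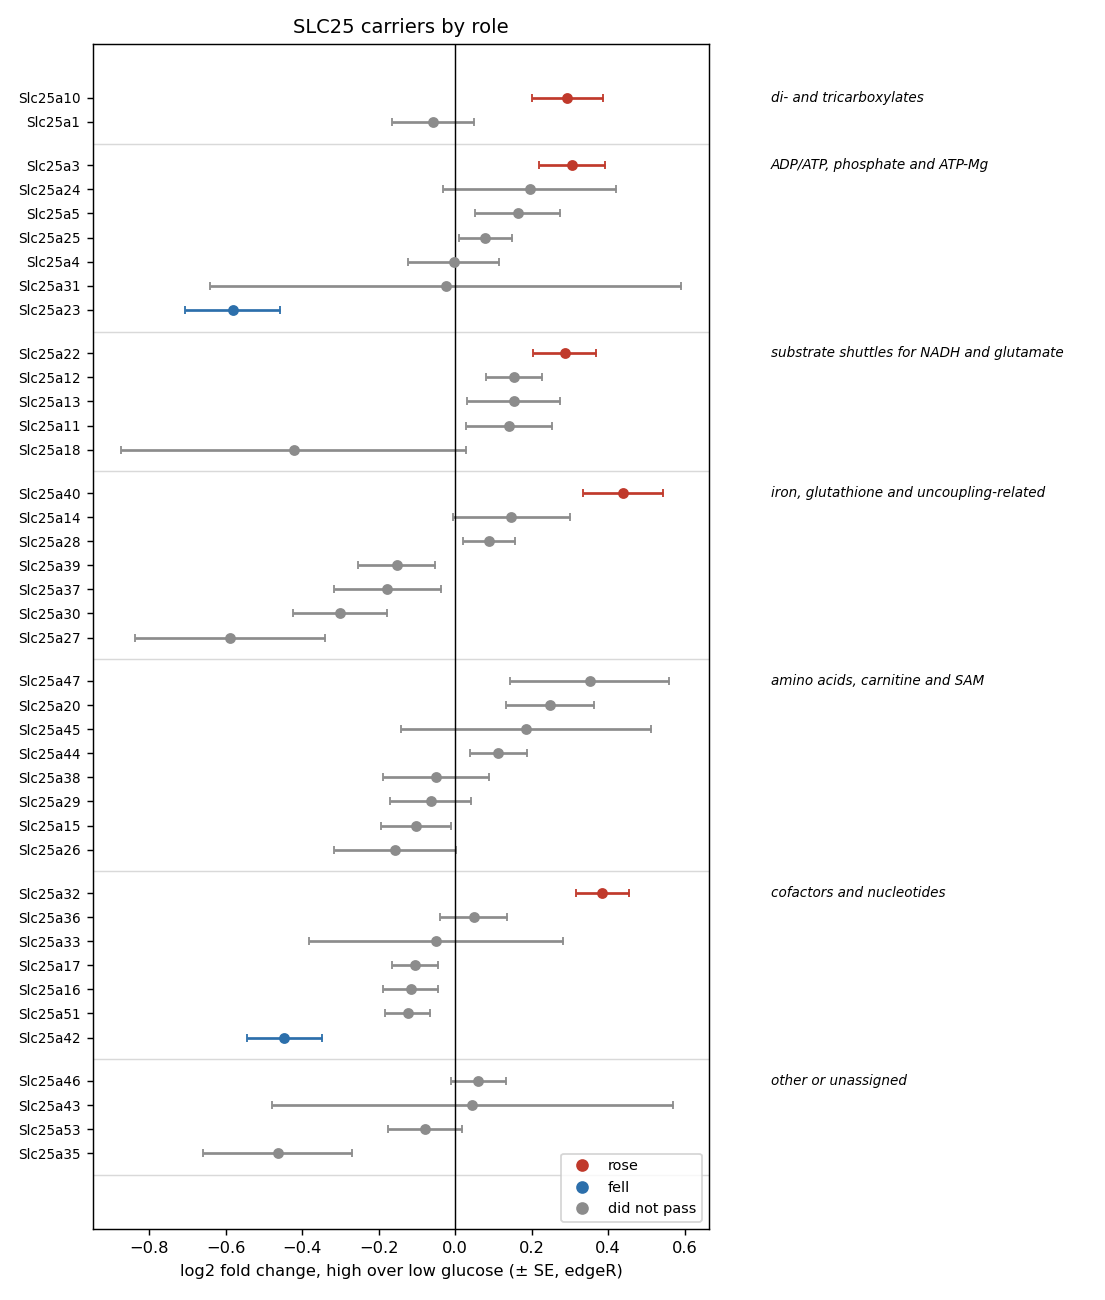
Log2 fold change ± SE, high over low glucose, of the tested SLC25 carriers reported by name, grouped by role. Red points rose, blue points fell and grey points did not pass, and the groups of roles hold members on either side of 0.

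The remaining carriers did not pass in edgeR. The mitoferrins Slc25a37 and Slc25a28, which import iron, had log2 fold changes of -0.18 ± 0.14 and 0.09 ± 0.07. Of the carriers related to uncoupling proteins, Slc25a14, Slc25a30 and Slc25a27 had log2 fold changes of 0.15, -0.30 and -0.59. Slc25a27 had the largest difference of all carriers and was at 4.33, 4.68, 4.57 and 4.49 CPM under high glucose and 8.11, 3.70, 9.37 and 5.91 CPM under low glucose. High glucose libraries were close together, and low glucose replicate 2 lay below them while replicates 1, 3 and 4 lay above. Adjusted p was 0.115 over all libraries and 0.00617 without low glucose replicate 2. None of the 8 tested carriers of amino acids, carnitine or S-adenosylmethionine passed in edgeR, DESeq2 or limma-voom, nor did any have an unadjusted edgeR p under 0.05. Their log2 fold changes ran between -0.16 (Slc25a26, for S-adenosylmethionine) and 0.35 (Slc25a47, at 0.723 ± 0.107 FPKM in high glucose). The carnitine-acylcarnitine carrier Slc25a20, which brings fatty acids to β-oxidation, had a log2 fold change of 0.25 ± 0.11, adjusted p = 0.148; in the fit blocked by replicate number it gave 0.0361. The 4 tested carriers with another or no assigned role had log2 fold changes between -0.46 (Slc25a35) and 0.06 (Slc25a46), with Slc25a43 and Slc25a53 between them.

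Whether carriers that changed differed from their relatives was tested on the log2 ratio of their FPKM within each library, which does not depend on library scaling. The 6 ratios were chosen with the results known. Slc25a40 over Slc25a39 was -5.14, -5.36, -5.29 and -5.38 in high glucose and -5.80, -6.17, -5.61 and -5.94 in low glucose, a difference of 0.59. Slc25a23 over Slc25a25 was 0.11, 0.27, 0.19 and 0.36 in high glucose and 1.20, 0.43, 0.96 and 0.91 in low glucose, a difference of -0.64. Slc25a42 over Slc25a16 was -0.69, -0.81, -0.33 and -0.59 in high glucose and -0.21, -0.32, -0.30 and -0.22 in low glucose, a difference of -0.34. In these 3 ratios the groups did not overlap. Each had a 2-sided exact permutation p of 0.0286, the smallest that 4 against 4 libraries can give. After Benjamini-Hochberg adjustment over the 6 ratios it was 0.0571, so none passed. With that floor no ratio could pass on its own values, however large its difference, so the adjusted p cannot decide the question. The upper gene of each ratio had also been called between these same libraries, which tilts its ratio towards a difference. For Slc25a22 over Slc25a18, Slc25a23 over Slc25a24 and Slc25a10 over Slc25a11 the groups overlapped, with exact permutation p of 0.371, 0.114 and 0.171 (adjusted 0.371, 0.171 and 0.206).

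**Figure D4:**
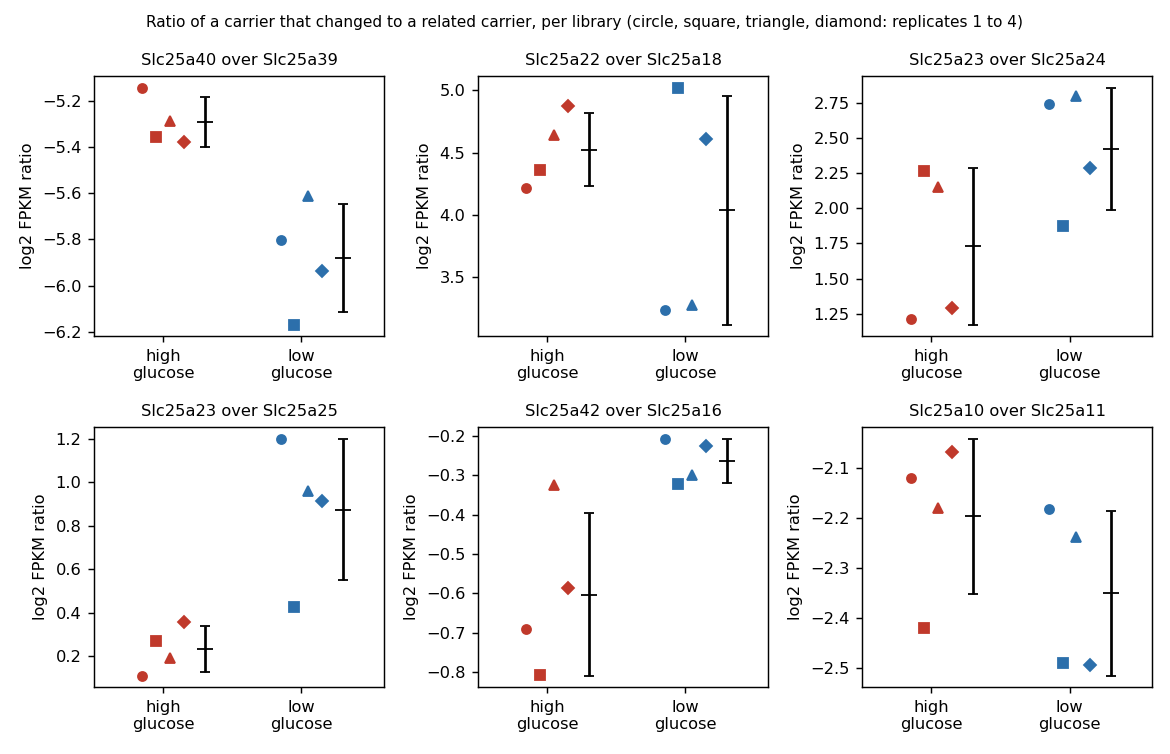
Log2 FPKM ratio of a carrier that changed to a related carrier in each library, with the mean ± SD of each group (n = 4; symbols give the replicate number and axes do not start at 0). High and low glucose do not overlap for Slc25a40 over Slc25a39, Slc25a23 over Slc25a25 and Slc25a42 over Slc25a16.

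The genes around the carriers gave a mixed picture. The 5 lists, chosen with earlier results known, held 50 tested genes, and 5 rose and 9 fell, beside 13.1% of all genes tested that rose and 11.9% that fell. Among other transporters and carrier-fold proteins of mitochondria, 2 of 19 rose and 4 fell, with a median log2 fold change of 0.00. Sfxn2, a sideroflexin, rose 1.495-fold to 82.3 ± 5.44 CPM under high glucose, against 55.0 ± 5.31 CPM under low glucose. Mtch1, an outer membrane protein of the SLC25 fold, fell 1.47-fold to 298 ± 17.5 CPM, against 439 ± 55.7 CPM. Abcb10, an exporter of the inner membrane, fell 1.34-fold. Mpc1, a subunit of the pyruvate carrier, fell 1.54-fold to 14.7 ± 1.39 CPM under high glucose, against 22.7 ± 3.68 CPM under low glucose, while its partner Mpc2 had a log2 fold change of 0.00 ± 0.12. Ucp2, an uncoupling protein of the same family, had a log2 fold change of 0.15 ± 0.08, adjusted p = 0.235. The changes of Sfxn2, Mtch1, Abcb10 and Mpc1 held with any library left out (adjusted p at most 0.0165).

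Of the 3 outer membrane channels, Vdac1 fell 1.34-fold (adjusted p = 0.015) and none rose. Of 10 tested genes of the route that inserts carriers into the inner membrane, Timm22, its channel, rose 1.28-fold and none fell. Among 7 enzymes of the NADH shuttles, the cytosolic malate dehydrogenase gene Mdh1 rose 1.54-fold to 343 ± 35.7 CPM under high glucose, against 224 ± 34.7 CPM under low glucose. Gpd2 and Gpd1l of the glycerol phosphate shuttle fell 1.29-fold and 1.18-fold, though the groups overlapped for Gpd2. Gpd1 of the same shuttle went the other way without passing. Its log2 fold change was 0.16 ± 0.07 (edgeR adjusted p = 0.143), with groups that did not overlap. The aminotransferases Got1 and Got2 had log2 fold changes of -0.00 ± 0.12 and -0.03 ± 0.09. Calls of Timm22, Gpd2 and Gpd1l were each lost in 5 or 6 of the 8 fits that leave out a library, with adjusted p up to 0.0877. Of 11 enzymes listed for the citrate-pyruvate and glutamate cycles, Idh2 fell 1.85-fold and Pcx, pyruvate carboxylase, 1.63-fold, while malic enzyme Me1 rose 1.26-fold. Pcx shares bases with Lrfn4 and Mdh1 with Wdpcp on the opposite strand, so their values are uncertain. Lrfn4 fell as well, with a log2 fold change of -0.64, and Wdpcp rose, with 0.25.

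**Figure D5:**
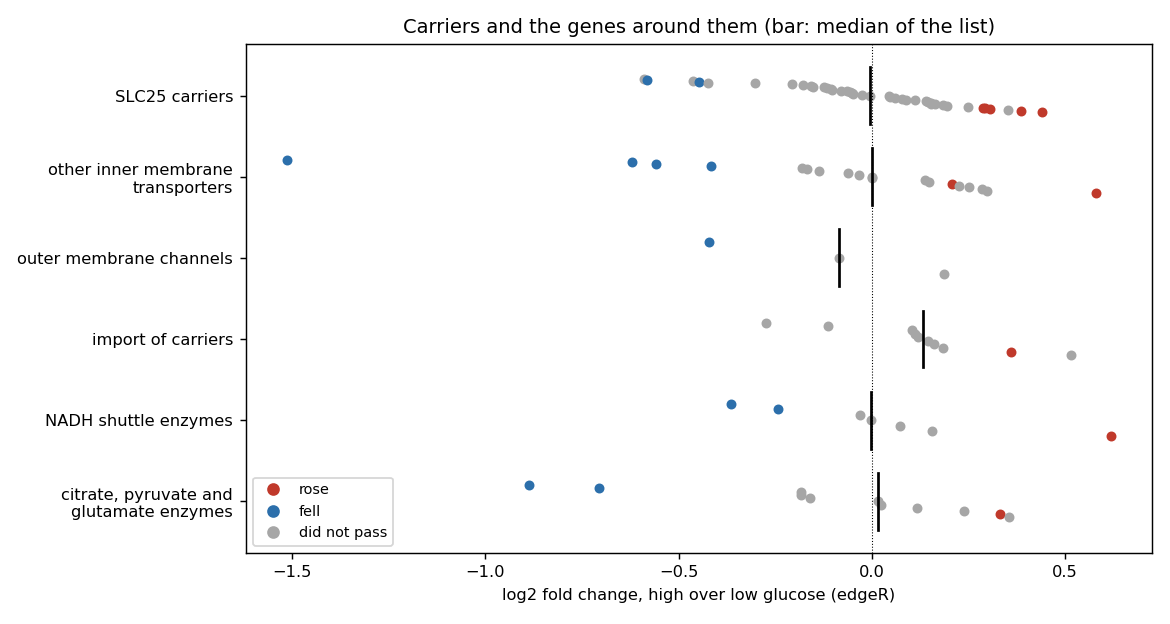
Log2 fold change, high over low glucose, of the tested SLC25 carriers and of 5 lists of genes around them (1 point per gene, bar at the median of the list). Medians lie near 0, and the carriers span a narrower range than the list of other transporters and carrier-fold proteins, in which Sfxn4 fell furthest. That list is labelled other inner membrane transporters, though it also holds Mtch1, an outer membrane protein.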

How the data were processed

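Islet RNA was sequenced from NEBNext Ultra RNA libraries, per the labels' protocols. Per the submitters' processing notes, STAR 2.5, HTSeq 2, DESeq2 and the build mm10 (GRCm38) were used. Strand setting, annotation release and multi-mapping rule were not given in the sources used here. Reads of overlapping or near-identical genes may therefore be shared or lost. Deposited values include the authors' whole, unnormalized read count for each gene. The deposited FPKM is the authors' count per gene length and per 1 total per library, and a deposited signal (count over a size factor) was not used. In the authors' deposited table of log2 fold changes and adjusted p-values, 7 of the 46 members are under 0.05, 5 higher and 2 lower. Of all 27534 genes listed, 4190 are under 0.05 there, or 15.2%. The 7 members are the same as in the fit described next.

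Counts were tested with edgeR 4.0.16 (R 4.3.3): TMM scaling, filterByExpr (minimum count 10, minimum total 15), a quasi-likelihood fit with group as its only term over 8 libraries, and Benjamini-Hochberg adjustment over all 15442 genes tested. CPM uses library sizes multiplied by the TMM factors, and the SE is the log2 fold change over the square root of F. The pipeline was tested on simulated data. Alternatives were RLE and library-size scaling, no filter, DESeq2 1.42.0, limma-voom (limma 3.58.1), a replicate block and left-out libraries. Members and lists were chosen with earlier results of these data known. Members past the threshold, the 8 most abundant and relatives of called members are named with values, as are up to 4 called genes of each list. Of the members, 1 is included in the counts and is not reported by name here. Other named genes, and the paralogue ratios, were chosen after their values were seen.

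Labels number the libraries 1 to 4 in each group without saying what a number stands for. Deviations from the group means over the genes tested correlated between same-numbered libraries by 0.101 to 0.475, against -0.367 to 0.207 between other libraries. These ranges overlap, as high glucose replicate 1 correlated with low glucose replicate 1 by only 0.101, so pairing is not settled for every number. Values are described in same-number pairs, while the main fit has group as its only term and the replicate block is an alternative. No library was a copy of another (chi-square per gene at least 12.9 between any pair). Similar genes were sought with BLAST 2.17.0 (at least 90% identity over 200 bases) in GENCODE M21 transcripts. Genes that overlap a carrier were not left out of that search.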

Additional observations from a re-analysis of the deposited data

Results flagged for a closer look

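Each tested carrier was checked for 1 library that stands apart within its group of 4, as the gap to its nearest neighbour over the range of the group. This gave 12 flags among 82 groups, where chance gives about 1 in 20 for independent groups. The carriers were measured in the same 8 libraries and are not independent, so the count cannot be read as an excess over chance. In high glucose, replicate 2 stood highest for Slc25a3 (0.894), Slc25a11 (0.891) and Slc25a14 (0.8294), replicate 1 stood apart for Slc25a23 (0.882, lowest) and Slc25a45 (0.891, highest), and replicate 4 was lowest for Slc25a28 (0.917). In low glucose, replicate 2 stood apart for Slc25a4 (0.939), Slc25a11 (0.871) and Slc25a17 (0.884), where it was highest, and for Slc25a13 (0.839), where it was lowest. In low glucose, replicate 3 was highest for Slc25a16 (0.875) and Slc25a40 (0.894). Libraries numbered 2 account for 7 of the 12 flags. Their shares of endocrine markers were the highest of each group, at 25.6% in high glucose and 25.5% in low glucose for β cells, 2.23% and 2.75% for alpha cells, and 0.618% and 0.666% for delta and PP cells. The part of these shares in the flags was not tested.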

How the results depend on the processing

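The count of carriers called, 7, was 11 with both libraries numbered 2 left out (7 higher, 4 lower), and ranged from 4 to 10 with 1 library left out (2 to 7 higher, 2 to 3 lower). With library size alone, 3 were higher and 6 lower. DESeq2, limma-voom and RLE scaling called the same 7. With the replicate block 10 carriers were called, the 7 among them. Slc25a32, Slc25a40, Slc25a23 and Slc25a42 passed in every alternative run. Counts over all genes kept within 1.5 times, save for 2862 lower genes with the replicate block, against 1831, and ranged from 3015 to 5132 called with 1 library left out. In the lists around the carriers, 5 genes were higher, against 9 with the replicate block and 10 with both libraries numbered 2 left out, and 3 to 10 with 1 library left out.

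Signs changed only for carriers that had not passed, and values are given here for some of them. With 1 library left out, Slc25a29, Slc25a31, Slc25a33, Slc25a36, Slc25a38, Slc25a43 and Slc25a45 also changed sign, as did Slc25a46 with library size alone. Slc25a4 gave log2 fold changes of 0.0015 with DESeq2, 0.0035 with RLE scaling, 0.0628 without both libraries numbered 2, 0.0066 with limma-voom and also 0.0066 with the replicate block. Slc25a4 ranged from -0.0706 to 0.128 with 1 library left out. Slc25a1 ranged from -0.139 to 0.0336 with 1 library left out, and Slc25a25 was at -0.0022 with library size alone. At this depth, carriers under 1 FPKM have standard errors of up to 0.62 on the log2 scale. The causes of these changes were not tested.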

Other observations

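For some low-level carriers, chosen here after their values were seen, the highest or lowest values fell in the same replicate numbers of both groups. Slc25a31, the testis form of the adenine nucleotide translocase, had 0.866, 0.884, 0.330 and 0.243 CPM under high glucose and 1.06, 0.803, 0.284 and 0.144 CPM under low glucose. Libraries numbered 1 and 2 were above those numbered 3 and 4 in each group, on 100 reads in all. Slc25a33, a pyrimidine nucleotide carrier, had 3.61, 3.64, 1.65 and 4.65 CPM under high glucose and 2.99, 4.55, 2.08 and 4.47 CPM under low glucose, lowest in replicate 3 of each group. Slc25a24 was at 10.9, 5.82, 6.36 and 11.4 CPM under high glucose and 7.01, 8.25, 6.53 and 8.45 CPM under low glucose. It was highest in replicate 4 of each group, by little in low glucose, and the order of the other replicates differed between groups. Acinar markers were also highest in replicate 4 of each group, at 2.04% in high glucose and 1.23% in low glucose, and their part in these levels was not tested.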
